A study of Homo sapiens with 24 samples.

Results

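H3K27ac in PANC-1 cells was compared between siControl+TGFβ and siPHF13+TGFβ, from the 4 peak lists that carry these labels, 2 per group, of 24 samples in the series, 18 of which have a peak list. PANC-1 is an established line from a human carcinoma of the pancreatic duct. Cells of both groups were treated with TGFβ at 10 ng/ml for 48 h. They differed, per the labels, in the transfected siRNA, which was a control siRNA or an siRNA against PHF13, and no label ties the 2 libraries of a group to separate cultures. The question was which acetylated promoters and distal regions of TGFβ-treated cells depend on PHF13. Since siPHF13+TGFβ replicate 1 is a very short list, both replicates are given apart throughout.

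H3K27ac, the acetylation of lysine 27 on histone H3, is laid down by EP300 and CREBBP at active promoters and enhancers and is absent from regions that Polycomb represses. PHF13 is a PHD finger protein that reads H3K4me3, the methylation of active and poised promoters. TGFβ signals through SMAD transcription factors, which act with AP-1 and other partners at enhancers, and drives epithelial cells towards a mesenchymal state. These are bulk libraries, in which fewer acetylated cells and less acetylation per cell cannot be told apart. The depletion itself was not measured by these lists, because the siRNA targets the PHF13 mRNA.

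2 facts about the lists precede the results. The peak names inside both lists labelled siPHF13+TGFβ read NCT, the study's abbreviation for siControl+TGFβ, while those inside both lists labelled siControl+TGFβ read 3AT. The labels were followed, and the directions below rest on them. The lists held 36104 and 27110 peaks in siControl+TGFβ (replicates 1 and 2) against 6004 and 32403 in siPHF13+TGFβ. The study's own table gives more peaks for siPHF13+TGFβ replicate 1 than its deposited list holds, and the deposited list was used. The lists hold no read numbers, those in the study's quality table were not used here, and the part of sequencing depth in any difference was not tested.

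The reference sequence of 2 distal regions and 2 promoters is shown first, as single examples of being kept in both siPHF13+TGFβ lists or lacking in both. They do not stand for all regions of these kinds. A peak's summit is its point of highest enrichment. Of each distal region 300 bases round the summit in a siControl+TGFβ list are given (hg19, plus strand). Capitals mark matches to TGANTCA, the motif of AP-1, which is the FOS and JUN dimer. The first region ranked 1 in all 4 lists and lies beside the centromere of chromosome 1, 645793 bp from the TSS of FAM72B. Of the 1662 distal regions kept in both, 22.4% lay, like this one, within 3 Mb of an assembly gap of at least 1 Mb. Peaks of the repressive mark H3K27me3 in siControl+TGFβ replicate 1 overlapped 399 of the 1662. Away from such gaps they overlapped 67 of 1290, so most of the overlap lay near gaps. The region shown is thus no typical acetylated region.
Kept in both, chr1:121485055-121485354: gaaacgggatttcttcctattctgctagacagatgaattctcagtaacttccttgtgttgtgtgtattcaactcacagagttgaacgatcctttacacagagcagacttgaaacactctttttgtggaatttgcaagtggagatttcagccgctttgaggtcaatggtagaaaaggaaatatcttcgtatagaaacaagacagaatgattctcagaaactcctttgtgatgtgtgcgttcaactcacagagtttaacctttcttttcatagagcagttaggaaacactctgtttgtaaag
The other was lacking in both siPHF13+TGFβ lists and lies in an intron of SKAP1, 59728 bp from its TSS. By control rank it was number 6 of the distal regions lacking in both. Numbers 1, 3 and 5 had no match to the AP-1 motif.
Lacking in both, chr17:46322119-46322418: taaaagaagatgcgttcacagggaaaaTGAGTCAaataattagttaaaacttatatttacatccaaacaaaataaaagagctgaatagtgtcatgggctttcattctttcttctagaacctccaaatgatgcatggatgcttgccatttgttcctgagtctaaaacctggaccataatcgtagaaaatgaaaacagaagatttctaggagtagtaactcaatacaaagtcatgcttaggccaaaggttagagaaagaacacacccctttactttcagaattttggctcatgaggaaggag
The AP-1 motif was found in 9.82% of all 39156 H3K27ac regions in windows of 301 bases round the summit, so a match describes a region and does not set it apart. The promoters are those of SKIL, which encodes an inhibitor of SMAD signalling, and CGN, which encodes cingulin, a protein of tight junctions. CGN was chosen for display after its values were seen. The 250 bases before the start of each gene are given (RefSeq, GRCh38.p14, plus strand). Capitals mark TGACGTCA, the palindromic site of cAMP-responsive ATF factors. In the same 250 bases it was found at 402 of 22114 RefSeq promoters (1.82%).
SKIL, kept in both, chr3:170357465-170357714: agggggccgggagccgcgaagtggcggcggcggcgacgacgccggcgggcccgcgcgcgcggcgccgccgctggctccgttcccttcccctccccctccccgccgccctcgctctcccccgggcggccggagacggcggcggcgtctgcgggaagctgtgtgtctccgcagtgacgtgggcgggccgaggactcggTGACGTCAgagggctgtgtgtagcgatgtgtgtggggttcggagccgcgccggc
CGN, lacking in both, chr1:151511137-151511386: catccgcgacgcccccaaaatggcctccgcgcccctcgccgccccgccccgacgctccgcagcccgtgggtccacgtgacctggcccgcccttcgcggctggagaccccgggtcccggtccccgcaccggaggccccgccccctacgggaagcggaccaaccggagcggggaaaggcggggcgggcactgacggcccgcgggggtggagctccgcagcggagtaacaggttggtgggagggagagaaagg

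The 4 lists were first compared as wholes. A peak whose summit lay under 5 kb from a protein-coding TSS was called proximal, and all others were called distal. The 5 kb limit is the study's, and its use with summits and protein-coding TSSs was a choice made here. Proximal peaks made up 46.2% and 54.8% of the siControl+TGFβ lists, 66.5% of siPHF13+TGFβ replicate 1 and 47.4% of replicate 2. The share was highest in the short list, and the groups overlapped. The difference of the group means was 6.45 percentage points (exact permutation test of 2 against 2 libraries, two-sided, p = 0.667, adjusted p = 0.667). The smallest p that this exact permutation test can give is 0.33. Proximal peaks covered 17.6 and 11.5 Mb in siControl+TGFβ against 1.27 and 16.2 Mb in siPHF13+TGFβ, and distal peaks covered 14.3 and 7.31 Mb against 0.624 and 12.6 Mb. In both classes replicate 2 lay between the control libraries and replicate 1 far below them. The changes were −1.65 and −1.87 on the log2 scale, each with an exact permutation p of 0.667 and an adjusted p of 0.667. Without siPHF13+TGFβ replicate 1 all 3 differences turned around, to −3.09 percentage points and to 0.19 and 0.30 on the log2 scale. A single library thus set the direction of each.

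Ranking allowed the lists to be compared at equal length. Within each list peaks were ranked by the −log10 q of the peak caller, with 1 the strongest. Among the strongest 6004 peaks of each list, the length of the shortest, proximal peaks made up 68.4% and 66.6% in siControl+TGFβ, against 66.5% and 69.2% in siPHF13+TGFβ. At this length the difference of the means was 0.308 percentage points (exact permutation p = 1). The lists still differed in peak width. Median widths of these peaks were 1574 and 1214 bp in siControl+TGFβ, against 252 and 1514.5 bp in siPHF13+TGFβ. The very top of each list was of another kind. Of the strongest 100 peaks, 64% and 67% in siControl+TGFβ, against 79% and 65% in siPHF13+TGFβ lay within 3 Mb of an assembly gap of at least 1 Mb, which in most chromosomes is the centromere. Intergenic peaks made up between 72% and 87% of this top in the 4 lists. A rank in siPHF13+TGFβ replicate 1 cannot exceed 6004, so ranks there are given as values and directions are read from fold enrichment.

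**Figure D1:**
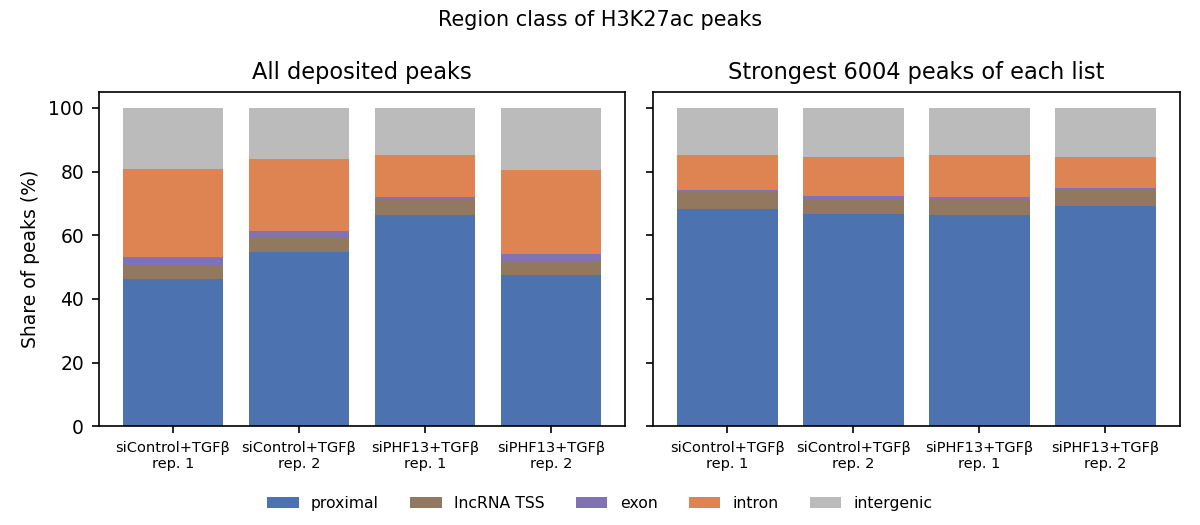
Share of H3K27ac peaks (y axis, percent) by class of region, for each of the 4 libraries (x axis), with all deposited peaks on the left and the strongest 6004 of each list on the right. Proximal peaks make up 46.2%, 54.8%, 66.5% and 47.4% of the full lists from left to right, and between 66.5% and 69.2% once the lists have the same length.

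Next, the regions that the siPHF13+TGFβ lists kept were counted. Overlapping or touching peaks of the 4 lists were merged into 39156 regions, of which 20897 had a peak in both siControl+TGFβ lists. siPHF13+TGFβ replicate 1 kept 5117 of these, or 24.5% (95% Wilson interval 23.9 to 25.1, covering the counting of regions only), and lacked the remaining 75.5%. The share was 69.6% with the strongest 6004 peaks of each list, 2.83% when at least 50% of a region had to be covered, and 15.2% without siControl+TGFβ replicate 2. siPHF13+TGFβ replicate 2 kept 20060, or 96.0% (95.7 to 96.3), and lacked 4.01%. Each of the 5117 regions kept in replicate 1 was also kept in replicate 2. The 837 regions lacking in replicate 2 were therefore lacking in both siPHF13+TGFβ lists. This number was 2293 without siControl+TGFβ replicate 1, 7723 without siControl+TGFβ replicate 2, 16423 without siPHF13+TGFβ replicate 2, and 359 with lists of equal length.

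That loss was set beside what a control library lacks by the same count. Of the regions found in the other two long lists, siControl+TGFβ replicate 1 lacked 0.786%, siControl+TGFβ replicate 2 lacked 23.5% and siPHF13+TGFβ replicate 2 lacked 4.01%. For distal regions these shares were 1.32%, 32.1% and 6.84%, and for proximal regions 0.382%, 15.4% and 1.76%. siPHF13+TGFβ replicate 2 thus lay between the control libraries in all 3 counts. It also held 4130 regions found in no other list, against 6827 for siControl+TGFβ replicate 1 and 935 for replicate 2.

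Proximal regions had the highest kept share of the 5 region classes in both siPHF13+TGFβ lists, followed by those at lncRNA TSSs. In siPHF13+TGFβ replicate 1, 29.6% of proximal and 18.0% of distal regions were kept. Among distal regions the share was 24.4% at lncRNA TSSs, 13.1% in exons, 14.1% in introns and 21.9% in intergenic sequence. Away from assembly gaps 15.6% of intergenic regions were kept, while 35.5% of regions of any class near a gap were. In siPHF13+TGFβ replicate 2 the corresponding shares were 98.2% of proximal regions, 93.2% of distal regions, 96.6% at lncRNA TSSs, 94.4% in exons, 92.0% in introns and 93.5% in intergenic sequence. Introns had the lowest share in replicate 2, while in replicate 1 the intervals of exons (10.1 to 16.9) and introns (13.1 to 15.1) overlapped.

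The kept share fell with rank far more than it differed by class. The 20897 regions were split into 10 equal bins by their mean rank in the siControl+TGFβ lists. siPHF13+TGFβ replicate 1 kept 86.1% of bin 1, 60.5% of bin 2, 39.8% of bin 3, 15.4% of bin 5 and 0.287% of bin 10. For proximal and distal regions apart, the shares were 86.8% and 84.9% in bin 1, 62.5% and 55.4% in bin 2, and 40.9% and 37.2% in bin 3. siPHF13+TGFβ replicate 2 kept 100% of bins 1 to 3, 99.9% of bin 5 and 73.6% of bin 10, where 79.5% of proximal and 71.0% of distal regions were kept. Averaged over the bins, proximal exceeded distal regions by 1.93 percentage points in replicate 1 (95% interval 0.982 to 2.88, higher in 9 of 10 bins) and by 1.93 in replicate 2 (1.44 to 2.42, higher in 7 of 10 bins). These intervals cover the counting of regions and not the spread between libraries. The difference in replicate 1 turned to −0.708 with the 50% strongest peaks of each list and to −4.45 when at least 50% of a region had to be covered, so the order of the classes in that library depended on the setting.

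**Figure D2:**
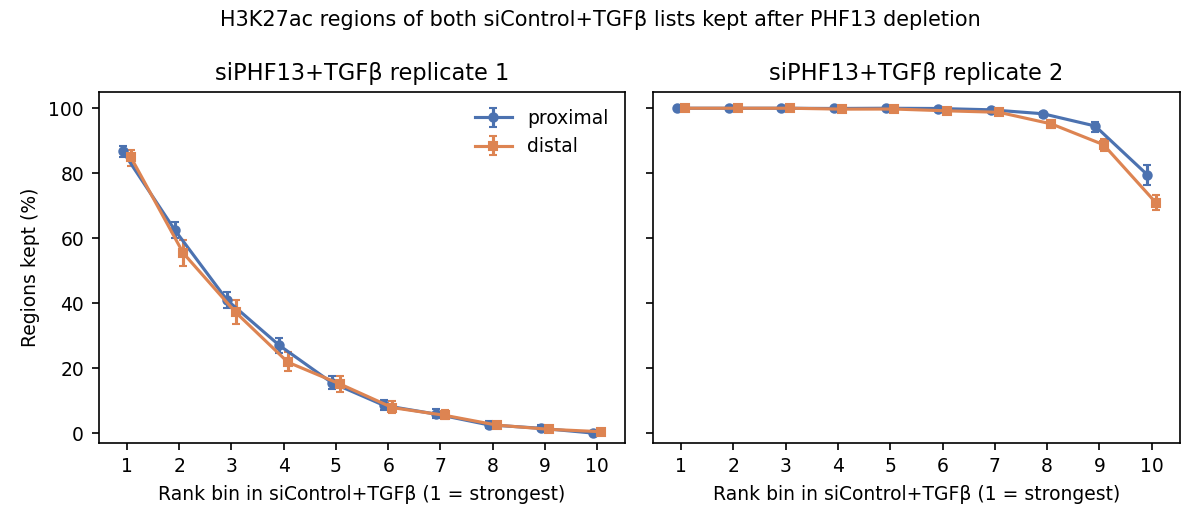
Share of regions kept (y axis, percent) in siPHF13+TGFβ replicate 1 (left) and replicate 2 (right), for proximal and distal regions in each of 10 bins of rank in siControl+TGFβ (x axis, 1 the strongest), with 95% Wilson intervals. Replicate 1 fell from 86.1% in bin 1 to 0.287% in bin 10, and replicate 2 stayed near 100% until the weakest bins and reached 73.6% in bin 10.

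At equal rank, the regions that siPHF13+TGFβ replicate 1 kept were wider in the control lists, and in bins 1 to 7 they had the lower fold enrichment. In bin 1, proximal regions that were kept covered a median of 1630.5 bp in siControl+TGFβ against 1411 bp for those lacking. Distal regions covered 1268.5 bp when kept and 676 bp when lacking. Fold enrichment over input was 8.26 for kept and 9.20 for lacking proximal regions. In the weak bins, where few regions were kept, the order of fold enrichment was the opposite for distal regions of bin 8 (5.59 for kept and 5.21 for lacking) and bin 10 (4.67 and 4.14) and for proximal regions of bin 9 (5.12 and 4.89). Width was also where replicate 1 stood apart. Over the 5117 regions with a peak in all 4 lists, peaks covered a median of 1667 and 1358 bp in siControl+TGFβ, 292 bp in siPHF13+TGFβ replicate 1 and 1580 bp in replicate 2. Replicate 1 was the narrowest of the 4 in 5079 of these regions (99.3%).

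Fold enrichment at these 5117 shared regions was tested with limma. Its median was 7.42 and 6.44 in siControl+TGFβ, 5.31 in siPHF13+TGFβ replicate 1 and 7.57 in replicate 2. Replicate 1 had the lowest value in 3420 regions (66.8%) and the highest in 684 (13.4%). The median change between the groups was −0.09 on the log2 scale. In limma, with a Benjamini-Hochberg adjusted p under 0.05, 0 regions were called in either direction (0% of those tested), and at an unadjusted p under 0.05 there were 14 higher and 4 lower. Without siPHF13+TGFβ replicate 2, 175 regions were called, 5 higher and 170 lower, and the lone library was assumed to vary like the controls. Across the regions, the fold enrichment of replicate 2 followed that of siControl+TGFβ replicates 1 and 2 with a Spearman rho of 0.928 and 0.856, while replicate 1 gave 0.469 to 0.495 with the other 3 lists. Regions are not replicates, and all lists share the base composition and mappability of the same genome.

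The 837 regions lacking in both siPHF13+TGFβ lists were mostly distal and weak. They comprised 206 proximal regions, 357 in introns, 220 intergenic, 33 at lncRNA TSSs and 21 in exons. Their median rank in siControl+TGFβ replicate 1 was 24925, and their median fold enrichment in the controls was 4.17 over 357 bp. The strongest of the distal ones (chromosome 12, 86303518 to 86303702) was 35529 bp away from NTS, which encodes the gut peptide neurotensin. It ranked 10942 and 5639 in siControl+TGFβ, with fold enrichments of 11.8 and 10.0, and it had no peak in either siPHF13+TGFβ list. An intergenic region near VPS54, a gene of retrograde transport, ranked 8931 and 10114 with fold enrichments of 13.5 and 7.78 (chromosome 2, 64304358 to 64304561). The intronic region of SKAP1 shown above covered 1786 and 558 bp with fold enrichments of 3.5 and 3.89. An intron of SYNJ2, which encodes a phosphoinositide phosphatase, held 1929 and 878 bp, and an intergenic region near ARID3B 1837 and 1171 bp.

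Other lists of the series gave values that this choice of regions had not used. Distal regions away from assembly gaps were divided into 1290 kept in both siPHF13+TGFβ lists, 6374 kept in replicate 2 alone and 593 kept in neither. Peaks of H3K27ac in untreated siControl cells overlapped 93.4%, 48.6% and 2.02% of them in replicate 1 and 97.9%, 73.4% and 12% in replicate 2. Most regions that were acetylated in both TGFβ control lists but in neither siPHF13+TGFβ list thus had no peak in either list of untreated cells. H3K4me3 peaks of siControl+TGFβ replicates 1 and 2 overlapped 92.4% and 88.5% of the regions kept in both, 72.4% and 66.4% of those kept in replicate 2 alone, and 36.9% and 31.0% of those kept in neither. In the H3K4me3 lists of siPHF13+TGFβ these shares were 64.0% and 85.8%, 37.3% and 60.5%, and 9.95% and 17.5%. The AP-1 motif was found in 10.0%, 12.1% and 14.0% of the 3 groups of regions. GGAATG, the motif of TEAD factors, was found in 16.3%, 16.8% and 20.9%. Over all 39156 regions, of which 42.7% are proximal, the share was 15.7%. Among regions of both siControl+TGFβ lists it was 11.6% for proximal and 19.2% for distal ones, the latter with those near gaps included. The 3 groups differ in rank, with medians of 4306.5, 14995.5 and 25019 in siControl+TGFβ replicate 1, and the part of rank was examined in the weakest bin. In bin 10, untreated replicate 1 overlapped 13.1% of distal regions that siPHF13+TGFβ replicate 2 kept and 1.44% of those it lacked, and untreated replicate 2 overlapped 37.0% and 8.89%. The kept ones were also wider, with 452 against 332 bp. AP-1 motifs were found in 14.1% and 13.7%, and the TEAD motif in 15.4% and 22.1%.

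**Figure D3:**
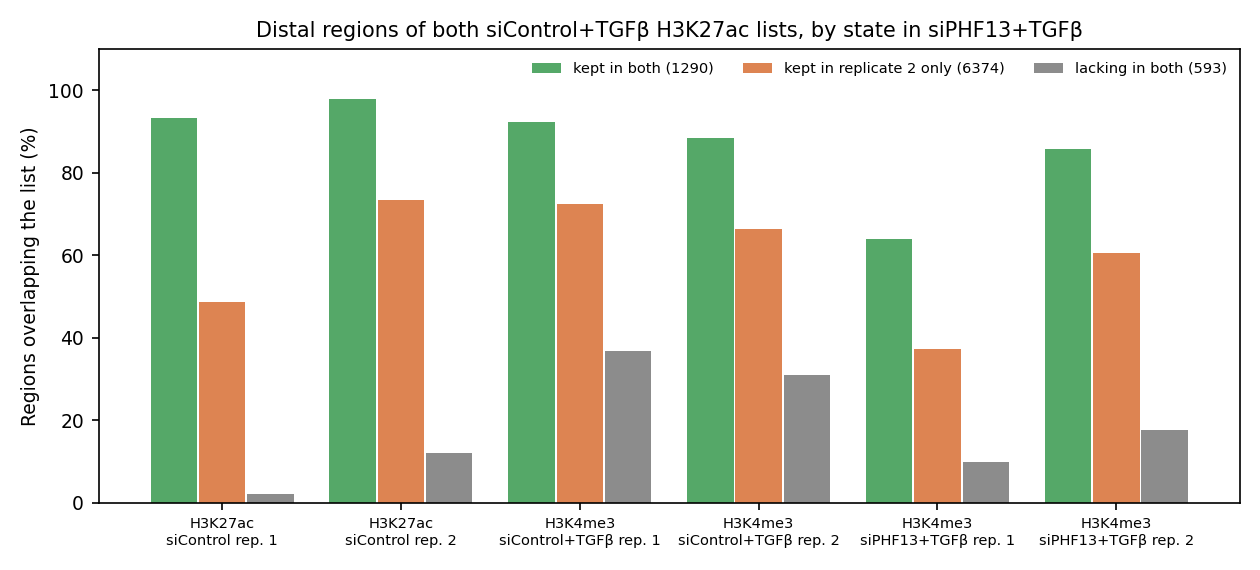
Share of distal H3K27ac regions away from assembly gaps (y axis, percent) that overlap a peak of 6 other lists (x axis), for regions of both siControl+TGFβ lists kept in both, in replicate 2 alone or in neither of the siPHF13+TGFβ lists. In each of the 6 lists the bars descend from regions kept in both to regions kept in neither, from 93.4% to 2.02% in untreated replicate 1.

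The reverse pattern was also counted. 5 of the 39156 regions had a peak in both siPHF13+TGFβ lists and in neither siControl+TGFβ list, a count that the short list limits. It was 229 with lists of equal length, where a control peak ranked below 6004 counts as absent, so most of these had a deposited control peak. The count was 42 without siControl+TGFβ replicate 1, 63 without siPHF13+TGFβ replicate 2 and 4135 without siPHF13+TGFβ replicate 1. The strongest of the 5 lay in an intron near PYY, a gut hormone gene (chromosome 17, 42075084 to 42075248). It had ranks of 202 and 6653 and fold enrichments of 13.5 and 14.0, and it also had a peak in untreated replicate 1. The others lay near PLEKHA5, COX6B2, CSPG5 and FOXD4L5, with fold enrichments between 3.93 and 6.0, and the FOXD4L5 region had a peak in both untreated lists. Of these, only COX6B2 was proximal. The strongest distal regions kept in both lists, by contrast, were pericentromeric and nearly unchanged in order. Distal regions kept in both often carried several marks near gaps, as the H3K27me3 counts given with the first sequence show. H3K4me3 peaks of siControl+TGFβ replicate 1 overlapped 1558 of all 1662, and 1192 of the 1290 away from gaps. The source of the signal near gaps was not tested. The regions nearest to FAM72B, UQCRFS1 and ZNF33B ranked 1, 4 and 5 in all 4 lists, at fold enrichments between 16.4 and 26.5.

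Promoters were then examined gene by gene. A coding gene had a promoter peak if a peak overlapped the 1 kb on either side of any TSS of its coding transcripts. Of 19794 coding genes, 11770 and 10745 had such a peak in siControl+TGFβ, 3868 in siPHF13+TGFβ replicate 1 and 11591 in replicate 2. Of the 10709 found in both controls, siPHF13+TGFβ replicate 1 kept 3863 (36.1%) and lacked 6846 (63.9%). siPHF13+TGFβ replicate 2 kept 10660 and lacked 49 (0.458%), all of which replicate 1 lacked too. The number lacking in both was 327 without siControl+TGFβ replicate 2, 6846 without siPHF13+TGFβ replicate 2, 103 with the 50% strongest peaks and 205 with lists of equal length. Where lists are cut to their strongest peaks, a weaker deposited peak counts as absent. By the same count against the other two long lists, siControl+TGFβ replicate 1 lacked 13 promoters and replicate 2 lacked 783. Across 10 rank bins of promoters, replicate 1 kept 90.5%, 75.1%, 59.9%, 43.6% and 37.3% of bins 1 to 5 and 2.1% of bin 10. Of the 6846 promoters without H3K27ac in replicate 1, 6776 had an H3K4me3 peak in the H3K4me3 list of siPHF13+TGFβ replicate 1, which is another sample with the same group and replicate number. The H3K4me3 list of siPHF13+TGFβ replicate 2 gave 6818, and those of siControl+TGFβ gave 6823 and 6817. Nearly all these promoters thus had H3K4me3 in every list, and the count does not set siPHF13+TGFβ apart.

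The cell type markers were checked next. Of the 7 markers of a ductal epithelial line, KRT8, KRT18, EPCAM, KRT19 and SOX9 had H3K27ac promoter peaks in both siControl+TGFβ lists and in siPHF13+TGFβ replicate 2. KRT7 had none in any of the 4 lists. Of 23 markers of other cell types, CD68 alone had a peak in both controls and in replicate 2, while SYP had a peak in siControl+TGFβ replicate 1 and siPHF13+TGFβ replicate 2. The defining markers of T cells, B cells, erythroid cells, hepatocytes, acinar and endocrine cells and endothelium had none.

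Genes of the TGFβ response were kept in siPHF13+TGFβ replicate 2, as nearly all coding promoters were, and few were kept in replicate 1. Replicate 2 kept 99.5% of all coding promoters, so a full count there does not set this list, or those below, apart. Of 23 direct TGFβ-SMAD targets, 19 had a promoter peak in both controls. All 19 were kept in replicate 2 and 4 in replicate 1 (21.1%, against 36.1% of all coding promoters). Their median mean rank in the controls was 13773.5, against 7267 for all coding promoters. The 4 were SKIL, SKI, ID1 and SMAD6, which encode SMAD inhibitors and a transcriptional inhibitor of differentiation. SKIL ranked 1222 and 328 in siControl+TGFβ, 885 in replicate 1 and 464 in replicate 2, and its peaks covered 2302, 1940, 725 and 2321 bp. It was thus strong in all 4 lists, and narrower in replicate 1. ID1 ranked 2057, 2986, 1883 and 1164 in the same order, with fold enrichments of 3.62, 3.21, 3.70 and 3.65 that barely differed. SMAD6 ranked 14465 and 13304 in the controls and 4038 and 9852 in siPHF13+TGFβ. SMAD7, the inhibitory SMAD, ranked 17227, 21787 and 12615 and was without a peak in replicate 1. TGFB2, a ligand, ranked 14053 and 11804 in the controls and weaker, at 22423, in replicate 2.

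In replicate 2, 12 of the 19 SMAD targets ranked stronger than in both controls and 1, TGFB2, ranked weaker. Over all promoters, 4134 of 10660 ranked stronger than in both controls (38.8%) and 2804 weaker (26.3%). The median shift was −0.27 on the log2 scale of rank for the SMAD targets and −0.08 for all coding promoters, where a negative value is a stronger rank in replicate 2. This is a description of 1 library, and it was not tested.

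EMT transcription factors and AP-1 subunits gave like counts. Of 5 EMT factors with a peak in both controls, replicate 2 kept all 5 and replicate 1 kept ZEB1 alone, at ranks of 4806 and 3654 in siControl+TGFβ, against 4628 and 7065 in siPHF13+TGFβ. SNAI1, encoding Snail, ranked 14290 and 19563, had no peak in replicate 1 and ranked 20548 in replicate 2, at fold enrichments of 3.0, 3.06 and 3.25. TCF3, encoding the E2A factors, was lacking in replicate 1 although it ranked 1031 and 2151 in siControl+TGFβ and 876 in replicate 2. Of 10 AP-1 subunit genes, replicate 1 kept JUN and FOSL1. FOSL1 had fold enrichments of 2.51 and 2.05 in the controls, at ranks of 2639 and 8368, and of 3.71 and 3.03 in siPHF13+TGFβ, at ranks of 813 and 1520. It was higher in both siPHF13+TGFβ lists, but the short list gives values only to promoters that passed into it. The direction in replicate 1 is therefore no separate result. JUN ranked 5117, 4954, 4459 and 3558 in the same order. FOS, FOSL2, JUNB and JUND were without a peak in replicate 1 and ranked between 5776 and 18298 in replicate 2.

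**Figure D4:**
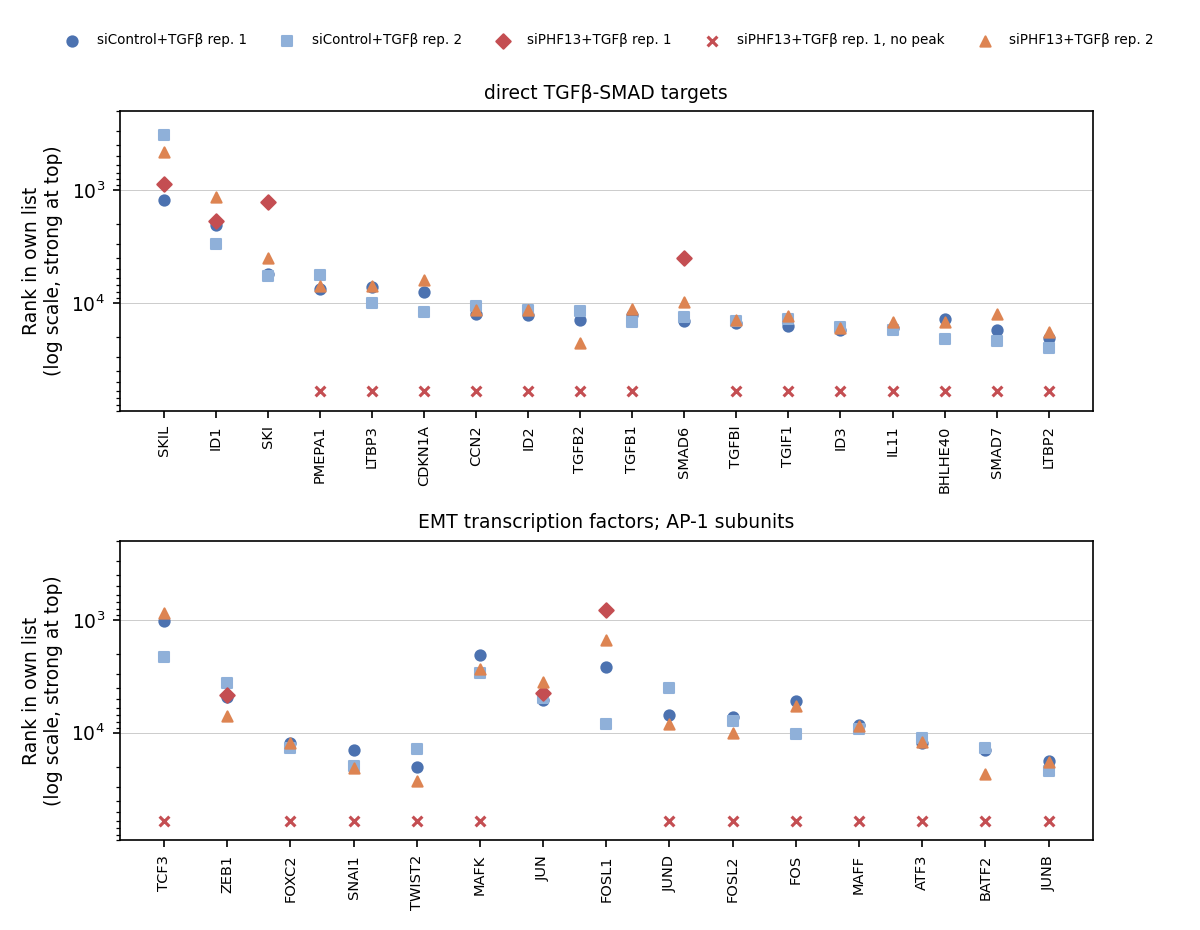
Rank of the strongest promoter peak in its own list (y axis, log scale, strong at the top) for 18 TGFβ-SMAD targets and the EMT transcription factor and AP-1 subunit genes with a peak in both siControl+TGFβ lists (x axis), with points for the 4 libraries and a cross at the bottom where siPHF13+TGFβ replicate 1 had no peak. Replicate 2 has a point at every gene shown, and replicate 1 has points at SKIL, ID1, SKI, SMAD6, ZEB1, JUN and FOSL1.

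Genes of Hippo signalling gave a similar count. Of 14 promoters of TEAD factors and YAP targets in both controls, replicate 2 kept 14 and replicate 1 kept 4, namely TEAD4, the coactivators YAP1 and WWTR1, and the kinase gene LATS2. YAP1 ranked 2696, 2029, 2107 and 2030 across siControl+TGFβ and siPHF13+TGFβ replicates, and its peaks covered 3217, 3099, 543 and 2973 bp. The YAP targets CCN1, CCN2 and AXL had no peak in replicate 1. They ranked 9725, 11629 and 12735 in replicate 2, against 9036 to 15703 in the controls.

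Epithelial and mesenchymal genes were both found among the kept promoters. Of 14 epithelial junction and keratin genes, replicate 2 kept 14 and replicate 1 kept 6, EPCAM, CLDN4, PKP3, KRT8, KRT18 and ESRP2. KRT8 and KRT18 share a peak, which ranked 1402, 2836, 3547 and 2147. CDH1, encoding E-cadherin, had no H3K27ac promoter peak in any of the 4 lists. With the control libraries named first, H3K4me3 peaks covered its promoter over 1329, 1121, 968 and 1289 bp. Peaks of the repressive mark H3K27me3 lay there too, spanning 1503, 1606, 0 and 1246 bp in that order. The 0 came from siPHF13+TGFβ replicate 1, whose H3K27me3 list was low in general. Of 26 mesenchymal, matrix and contractile genes, replicate 2 kept 26 and replicate 1 kept VIM, CDH2, COL5A2, TPM2, ITGA2, ITGA3, ITGAV and S100A6. ITGA2, an integrin subunit of the collagen receptor, had fold enrichments of 2.68 and 2.70 in siControl+TGFβ, against 6.05 and 3.61 in siPHF13+TGFβ, and its rank went from 4094 and 3669 to 273 and 1886. It was thus higher in both siPHF13+TGFβ lists, with the same limit as FOSL1, that only promoters in the short list have a value in replicate 1. VIM, encoding vimentin, ranked 6635, 6211, 4917 and 8742, and CDH2, encoding N-cadherin, ranked 18843, 20083, 4587 and 20224. MMP2 and COL1A1 had no peak in replicate 1 and ranked 16256 and 15052 in replicate 2, against 10830 and 15710, and 7127 and 13498, in the controls. Their fold enrichments lay the other way, at 6.02 and 4.80 in replicate 2 against 5.90 and 4.64, and 4.53 and 4.25. Of the study's 8 ChIP example genes, which were chosen on these samples and are no independent evidence, 5 had a peak in both controls, replicate 2 kept 5 and replicate 1 kept ITGA2.

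Ribosomal protein and chromatin genes had larger kept shares in replicate 1 than the 36.1% of all coding promoters, at stronger control ranks, and cell cycle genes did not. These differences were not tested. All 79 cytoplasmic ribosomal protein genes had a peak in both controls, of which replicate 2 kept 79 and replicate 1 kept 44 (55.7%). Their median mean rank was 5214.5. RPLP1 ranked 5682, 4747, 968 and 4623, while RPS20 was lacking in replicate 1 at control ranks of 1401 and 2096. Of 32 cell cycle genes, replicate 1 kept 11 (34.4%), among them CDC25C, TOP2A, CDK1, CCNB1 and CDK4, at a median mean rank of 5832. CCNE1, MCM2 and PCNA were lacking there. Of 29 genes of the H3K4 and Polycomb machinery, replicate 1 kept 13 (44.8%), including the Polycomb genes EZH2, EED and SUZ12, the H3K4 methyltransferases KMT2A, KMT2B, KMT2D and SETD1A, and the acetylation writer EP300. EED ranked 319, 414, 613 and 326. CREBBP, the other writer, had no peak in replicate 1 and ranked 867 in replicate 2, against 3950 and 2477. The promoter of PHF13 ranked 10251 and 7631 in siControl+TGFβ and 9570 in replicate 2, and was without a peak in replicate 1. Of the 3 pancreatic lineage factors with a peak in both controls, FOXA3 was kept in replicate 1, while SOX9 and FOXA2 were not. SOX9 ranked 8374, 12490 and 10612 in the other 3 lists.

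**Figure D5:**
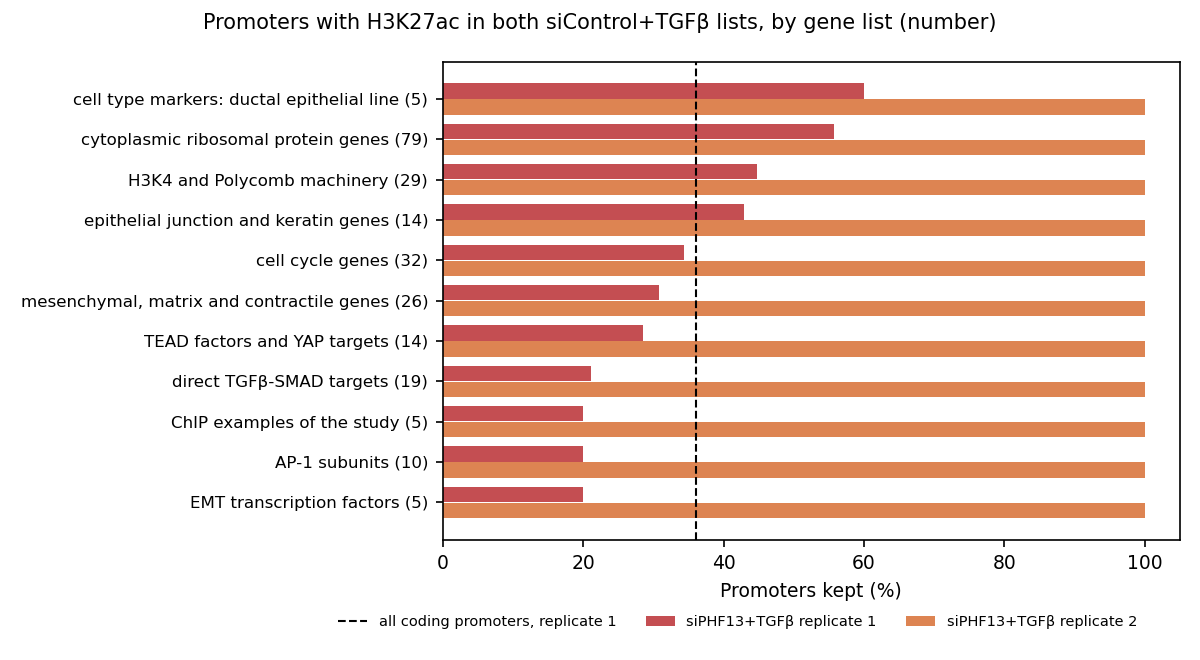
Share of promoters kept (x axis, percent) in siPHF13+TGFβ replicates 1 and 2 for 11 gene lists (y axis, with the number of promoters in both siControl+TGFβ lists), and the share of all coding promoters kept in replicate 1 (dashed line, 36.1%). Replicate 2 kept every promoter of these lists and 99.5% of all coding promoters, and replicate 1 kept between 20% and 60% of these lists.

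The list shares in replicate 1 ran alongside control rank. SMAD targets and EMT factors, at median mean ranks of 13773.5 and 13016.5, had shares of 21.1% and 20%, while ribosomal protein and chromatin genes, at 5214.5 and 5203.5, had 55.7% and 44.8%. The epithelial list departed from this, at 42.9% with a median mean rank of 10992.8, and so did AP-1 subunits, at 20% and 7677.5, and cell cycle genes, at 34.4% and 5832.

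Outside the lists, the promoters that stood highest in the controls among those lacking were listed by rank. Of the 49 lacking in both siPHF13+TGFβ lists, the first was ENSG00000291312 on chromosome 19, at ranks of 118 and 215, where the peak reached only 49 and 62 bp into the promoter window. TRIM55, H2AB2, ELAVL3 and VGF followed, with between 1 and 196 bp. CGN ranked 19194 and 18095, with 1209 and 265 bp, and TEC, a tyrosine kinase gene, and LAT, an adaptor gene of T cell signalling, had up to 522 and 689 bp. CGN had no H3K27ac peak in either untreated list, and H3K4me3 peaks covered it over 1722, 1745, 1429 and 1621 bp. Among promoters lacking in replicate 1 alone, the strongest were much wider. KAZALD1 ranked 195 and 342 in siControl+TGFβ and 317 in replicate 2, with 1335, 1152 and 1078 bp. The shared promoter of HSPA1A and HSPA1L, genes of HSP70 chaperones, ranked 459 and 336 in the controls and 1618 in replicate 2. IBA57 had fold enrichments of 17.8, 11.1 and 15.2 and no peak in replicate 1. The divergent promoters of ZNF829 and ZNF568, and of CIP2A and DZIP3, and those of SLC35B1 and EMC1 completed the 10.

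The promoters that were strongest in replicate 1 itself were MED29 and PAF1, SUPT5H, TTC9B, AKT2, PSMC4, PLEKHG2, TIMM50 and RPS16, followed by EEF1A1. All but EEF1A1, which encodes the translation elongation factor, lie between 39 and 41 Mb of chromosome 19. At TTC9B the H3K27ac peaks reached 326, 279, 50 and 311 bp into the promoter window, control libraries first. H3K27me3 peaks spanned 1155, 1014, 899 and 1391 bp there in the same order, while the other promoters named had none. TTC9B is therefore listed for the rank of a peak that only partly lies in its promoter. MED29 and PAF1, genes of the Mediator and of a transcription elongation complex, share a peak that ranked 23 and 37 in siControl+TGFβ, against 62 and 31 in siPHF13+TGFβ. In this interval, which was chosen after the ranks were seen, replicate 1 kept 35 of 41 promoters (85.4%), against 35.9% elsewhere. Their median control ranks were 132 and 181, against 7016 and 7454 elsewhere, and 90.5% of all promoters in the strongest rank bin were kept. The part of DNA copy number in the strong ranks of this interval was not tested. EEF1A1 had fold enrichments of 2.86 and 2.50 in the controls and of 5.55 and 3.65 in siPHF13+TGFβ. It was named for its rank in replicate 1, so the higher value there is no separate result.

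Promoters acetylated in siPHF13+TGFβ without a control peak were few. Of 7988 promoters with no peak in either siControl+TGFβ list, replicate 2 had a peak at 135 (1.69%) and replicate 1 at 1 (0.0125%), that of COX6B2, a subunit of cytochrome c oxidase. COX6B2 ranked 5740 in replicate 1 and 24807 in replicate 2, with 191 and 670 bp. Its H3K27me3 peaks covered 2180 bp in both siControl+TGFβ lists against 472 and 1343 bp in siPHF13+TGFβ. The H3K27me3 list of siPHF13+TGFβ replicate 1 was low in general. It overlapped 4.39% of all 39156 regions, against 6.07% for its replicate 2 and 6.43% and 6.39% for siControl+TGFβ. The strongest in replicate 2 were LRP5, a WNT coreceptor gene, with a rank of 3942 over 264 bp, and C3orf18. Of the first 10, CYP26B1, which encodes an enzyme that degrades retinoic acid, and BCR had the widest peaks, at 774 and 1140 bp. By the same count, siControl+TGFβ replicate 1 alone had 278 promoters found in none of the other 3 lists and replicate 2 had 23, against 134 for siPHF13+TGFβ replicate 2, which are the 135 without COX6B2.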

How the data were processed

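H3K27ac was profiled by ChIP-seq in PANC-1 cells. According to the study's methods, reads were trimmed (Trim Galore 0.4.1), aligned to hg19 (Bowtie2 2.4.1), cleared of duplicates (Picard) and used to call narrow peaks per library against input (MACS2 2.2.7.1). The stated q threshold is stricter than the lowest deposited −log10 q of 1.30. For every peak the authors deposited the peak caller's score, fold enrichment (ratio), −log10 p-value and −log10 q-value. The fold enrichment and −log10 q were used and the score, which repeats the latter, was not. H3K4me3 and H3K27me3 lists and untreated H3K27ac lists were used for overlap only. Input samples were not analysed here. A deeper library yields more and wider peaks.

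Genes were those of GENCODE release 44 on GRCh37 and coordinates are 1-based. Intervals were handled with NumPy 2.4.6 and pandas 2.3.3 in Python 3.11.15 and checked on simulated data. Regions needed an overlap of 1 bp. Shared regions were tested with limma 3.58.1 in R 4.3.3 (log2 fold enrichment, no pseudocount, no replicate block, Benjamini-Hochberg adjustment over 5117 regions). Whole lists were compared by exact two-sided permutation with adjustment over 3 tests. Replicate numbers were not used to pair the libraries in the main tests. The correlation of deviations by number was −0.474. It cannot decide whether the libraries were paired, because siPHF13+TGFβ replicate 1 differs from all other lists. The study's DiffBind test on reads was not possible.

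The members, gene lists and rules were chosen with earlier results of these data known. Genes named outside the lists were the 10 strongest promoters by rank of each kind of pattern, and regions the 10 strongest distal ones lacking and the 5 kept. Some genes, regions and a gene list are not reported here. The restriction to distal regions away from gaps and the rank shifts were added later.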

Additional observations from a re-analysis of the deposited data

How the results depend on the processing

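Under the alternatives, 59 values kept their direction (comparisons of whole lists), stayed within 1.5 times (counts) or within their interval (shares), 43 moved and 5 reversed. siPHF13+TGFβ replicate 1 decided the 3 comparisons of whole lists. Leaving out each library in turn gave proximal shares of −3.09 to 16.0 percentage points, and changes in covered length of −3.48 to 0.19 (proximal) and −4.03 to 0.30 (distal) on the log2 scale. The reversed values, −3.09, 0.19 and 0.30, were those without siPHF13+TGFβ replicate 1. Under the other settings these 3 kept their direction but not their size, at 0.308 percentage points, −1.02 and −0.96 with lists of equal length.

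For the regions kept in siPHF13+TGFβ replicate 1, the share was 19.6% with peaks of a −log10 q of at least 3, 22.2% with the 50% strongest peaks, 2.83% with at least 50% of the region covered, 69.6% with lists of equal length and 23.7% without peaks near large assembly gaps, a setting chosen after seeing the data. For replicate 2 the first 4 settings gave 96.8%, 95.5%, 94.9% and 88.8%. Leaving out a library gave 15.2% to 23.9% and 77.3% to 96.0%. The proximal minus distal difference in replicate 1 was 0.439, −0.708, −4.45 and 6.13 percentage points under these 4 settings and 5.14 with ranks from fold enrichment, and 0.734 to 3.46 when a library was left out. In replicate 2 it was 4.27 with the 50% strongest peaks, 3.56 with at least 50% covered, 8.24 with equal length, 2.90 with proximal under 1 kb, 3.06 with ranks from fold enrichment, and 1.93 to 5.30 when a library was left out.

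Regions lacking in both numbered 552 with the 50% strongest peaks, 359 with equal length, and 837 to 16423 without a library. Regions found only in both siPHF13+TGFβ lists numbered 3 with the −log10 q filter, 2 with at least 50% covered, 229 with equal length, and 5 to 4135 without a library. Promoters lacking in both numbered 103 with the 50% strongest peaks, 205 with equal length, and 49 to 6846 without a library. With the 50% strongest peaks and with equal length, a weaker deposited peak counts as absent, so these counts include regions and promoters that have one. The extremes arise where fewer lists must meet the rule. With siPHF13+TGFβ replicate 2 left out, 16423 regions and 6846 promoters were lacking. With siControl+TGFβ replicate 2 left out, 7723 and 327 were.

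In limma, 0 regions were called under 8 alternatives, and between 0 and 175 when a library was left out, the latter without siPHF13+TGFβ replicate 2. With the replicate block 0 were called (smallest adjusted p = 1.00), and with the block the 3 permutation values had p = 1. Whether the numbers pair the libraries could not be decided from these lists. The crossed replicate block, added after seeing the data, called 3 regions, all lower. The cause of these moves was not tested. With 2 libraries a group, changes of whole lists were not detectable by the exact test at any size.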

Other observations

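Outside the coding genes, 2 small noncoding RNA genes, chosen after their values were seen, had these values. The peak over RN7SK, the 7SK RNA gene on chromosome 6, had fold enrichments of 9.42 and 29.6 in siControl+TGFβ replicates 1 and 2, 12.8 and 11 in siPHF13+TGFβ, and 8.81 and 23.7 in untreated siControl. At RN7SL2, which encodes the RNA of the signal recognition particle, these were 4.00 and 29.7, 9.96 and 4.75, and 4.10 and 20.1. Replicate 2 of both control groups stood highest at both genes, and siPHF13+TGFβ replicate 1 came next. The peak in the promoter window of RPS29, likewise chosen afterwards and on the same chromosome as RN7SL2, had 8.0, 40.7, 11.3 and 8.0 in the 4 TGFβ-treated lists. Noncoding RNA genes within that window were not examined, so these values are not assigned to RPS29 itself and are no separate example.

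Among 5697 promoters with a mean control rank of at most 10000 and control ranks under 2-fold apart, siPHF13+TGFβ replicate 2 ranked 1966 weaker and 2094 stronger than both siControl+TGFβ lists, and 112 and 162 by at least 2-fold in rank. Among the weaker ones were PPP3CB, a calcineurin subunit gene, at ranks of 1119 and 1014 against 4273, and SYF2, a spliceosome gene, at 666 and 684 against 2543. Among the stronger were ECHS1, an enzyme of fatty acid oxidation, at 6836 and 11110 against 1079, and ADAR, the RNA editing enzyme, at 5042 and 7452 against 1351. These genes were chosen after their values were seen, and the differences rest on 1 library.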
